A study of Mus musculus with 248 samples.

Results

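Nr4a1, Egr1, Junb and Zfp36 are 4 immediate early genes, chosen by name from the authors' deposited result tables, where symbols were matched ignoring case. They stand among 16203 genes that the authors tested, and all 4 were found in the table that compares hematopoietic stem cells (HSCs) whose mitochondrial membrane potential (MMP) was low or high and in the table of cell clusters A to E. The choice was made with their values in these tables known, so these values are a description and carry no test of the choice. Each library held the RNA of 1 HSC captured on a microfluidic chip, from C57Bl6 mice, sorted as Lin-Sca1+cKit+CD150+CD48- and then as MMP-low (122 libraries) or MMP-high (126 libraries). No genotype, treatment or age is given in the sources used here, and no animal or sort is named behind a cell. Each group was therefore treated as 1 sample with no replicate to check a difference against. The series states that 224 cells were kept, without a list of their libraries in the sources used here. The files analysed here hold a log fold change, the share of cells with detection and a p-value per gene, not a level per cell, so values by cell cannot be shown. Reads carry no molecular identifiers, and the authors' p-values come from single cells, so they measure a spread between cells and not between animals.

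Immediate early genes are transcribed within minutes of a signal, before any new protein is made. Kinases of the MAPK pathway switch on factors already bound at their promoters, such as the serum response factor SRF with its ETS partners and the cAMP-responsive factor CREB, and the resulting messages are short-lived. In HSCs, Nr4a1, a nuclear receptor that acts without a known hormone, and Egr1, a zinc finger factor, are known for restraining proliferation and keeping cells in the bone marrow niche. Junb encodes a subunit of the AP-1 dimer and limits the growth of myeloid progenitors. Zfp36 encodes tristetraprolin, which binds AU-rich messages and speeds their decay. The same genes are also known to be switched on when tissue is dissociated and cells are sorted, so that their RNA can record a state of the living cell or its handling.

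The promoters are shown because the genes are read together and are known for sharing signal-responsive elements. The 250 bases before the RefSeq start of 3 of the genes are printed in the build GRCm38.p6, 5′ to 3′ along the gene's strand, with capitals at every match, on either strand, to a CArG box (the binding site of SRF) or to TGACGTCA (the cAMP response element), GCGTGGGCG or GCGGGGGCG (sites of the EGR family), TGANTCA (the AP-1 site) or TGCGTCA (letters akin to the cAMP response element). GCGGGGGCG and TGCGTCA were added after the promoters had been read. They lie at chr15:101266596-101266845 on the plus strand for Nr4a1, at chr8:84978749-84978998 on the minus strand for Junb and at chr7:28379229-28379478 on the minus strand for Zfp36. RefSeq and GENCODE place some starts apart, so the windows of Nr4a1 and Zfp36 lie inside the GENCODE spans given for these genes.
Nr4a1: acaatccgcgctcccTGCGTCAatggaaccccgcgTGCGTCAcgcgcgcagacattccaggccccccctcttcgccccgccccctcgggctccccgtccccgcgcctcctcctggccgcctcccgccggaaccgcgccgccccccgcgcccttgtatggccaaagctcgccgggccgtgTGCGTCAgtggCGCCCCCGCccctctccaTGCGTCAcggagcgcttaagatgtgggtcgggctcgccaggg
Junb: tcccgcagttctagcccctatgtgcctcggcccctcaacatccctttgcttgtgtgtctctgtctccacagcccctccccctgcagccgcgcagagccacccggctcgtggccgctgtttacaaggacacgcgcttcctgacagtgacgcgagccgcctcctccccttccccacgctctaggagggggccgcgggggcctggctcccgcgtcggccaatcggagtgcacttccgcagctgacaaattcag
Zfp36: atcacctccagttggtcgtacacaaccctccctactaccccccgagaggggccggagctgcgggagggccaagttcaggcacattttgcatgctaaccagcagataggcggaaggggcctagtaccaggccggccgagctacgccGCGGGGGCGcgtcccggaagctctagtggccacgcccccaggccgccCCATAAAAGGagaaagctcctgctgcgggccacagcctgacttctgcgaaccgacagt

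Nr4a1 held 4 copies of TGCGTCA, which start 235, 215, 71 and 42 bases before its start, and 1 of GCGGGGGCG on the opposite strand, 60 bases before. TGCGTCA was found in 1.75% of the 32851 RefSeq promoter windows of this length, and 4 copies or more in 1 of them, that of Nr4a1. Since TGCGTCA was picked after the promoters, that of Nr4a1 among them, had been read, this count is no test. Zfp36 held 1 CArG box 58 bases before its start and 1 GCGGGGGCG farther upstream, letters found in 1.47% and 2.57% of all windows. Junb held none of the 6. The letters TGACGTCA, GCGTGGGCG and TGANTCA were found in 1.55%, 0.536% and 6.75% of all windows and in none of these 3. A match is a description of letters and does not show binding, and a window without a match says nothing of the factor.

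In the GENCODE annotation of the GRCm38 assembly, Junb spans 4235 bases with 1 exon (chromosome 8, 84974484 to 84978718, minus strand). Egr1 spans 5162 bases with 2 exons (chromosome 18, 34859823 to 34864984, plus strand). Zfp36 spans 3470 bases with 2 exons (chromosome 7, 28376784 to 28380253, minus strand). Nr4a1 spans 20527 bases with 8 exons (chromosome 15, 101254269 to 101274795, plus strand). The exon numbers are those of the longest coding transcript, and the median over 21840 protein-coding genes was 7 exons and 17374 bases. Among 905 matched genes of the MMP-low side 6.74% had at most 2 exons, and among 863 matched genes of the MMP-high side 4.75%.

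Each of the 4 genes stood on the MMP-low side. In the authors' deposited MMP table, Nr4a1 had a log fold change of 1.06 in favour of MMP-low (adjusted p = 1.35e-10). The base of the logarithm is not stated. Junb followed in the authors' deposited table with 0.86 (adjusted p = 1.5e-07), Egr1 with 0.74 (adjusted p = 3.12e-05) and Zfp36 with 0.57 (adjusted p = 4.91e-06). Among the 949 genes on the MMP-low side these folds took rank 25 for Nr4a1, 40 for Junb, 62 for Egr1 and 136 for Zfp36, where the median fold was 0.36. That side held 5.86% of the genes tested and the MMP-high side 5.67%, or 3.33% and 3.69% with an adjusted p under 0.05. Since these values chose the genes, nothing is read from their direction.

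Detection was at or near its ceiling, so the folds of these genes rest little on the share of cells with detection. The part of normalization in the folds, for which no method is given in the sources used here, was not tested. By the authors' deposited MMP table every cell of either group, 100%, had Egr1, Junb and Zfp36. Nr4a1 reached 100% in MMP-low against 96.6% in MMP-high by the authors' deposited table. Of the 949 genes on the MMP-low side, 97 (10.2%) were detected in every cell of both groups, and among these Junb ranked 6, Egr1 11 and Zfp36 18 by fold. For comparison, the median detection on that side was 84.8% for MMP-low against 70.6% for MMP-high. By the difference in detection rather than by fold, Nr4a1 ranked 693 and the other 3 genes shared rank 807 of 949.

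More genes were detected per library in MMP-high, the group in which the 4 genes were lower. MMP-high libraries held a median of 3795.5 detected genes (range 1130 to 5200, SD over cells 1112) and MMP-low libraries 2316.5 (range 514 to 3674, SD 681), with median total reads of 1816108 and 1620811. The order of the groups depended on the library number given in the titles. Up to number 85 the medians were 4080 and 2500 genes in 85 libraries each, and above 85 41 MMP-high libraries had a median of 1905 against 2083 in 37 MMP-low libraries. Intronic reads had a median share of 34.2% for MMP-high against 42.7% for MMP-low, or 21.1% against 37.5% up to number 85 and 45.5% against 46.1% above it. The series states a minimum of 5500 genes for a cell to be kept, and 0 of the 248 libraries reach it by the deposited gene numbers. The Y-linked genes Eif2s3y and Ddx3y, chosen after their values were seen, had detection of 89.5% and 70.5% in MMP-low against 12.6% and 8.4% in MMP-high by the authors' deposited table, and the part of the sex of the source mice in the 4 folds was not tested. The tables do not give the 4 genes by library number, and the part of depth in their folds was not tested.

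**Figure D1:**
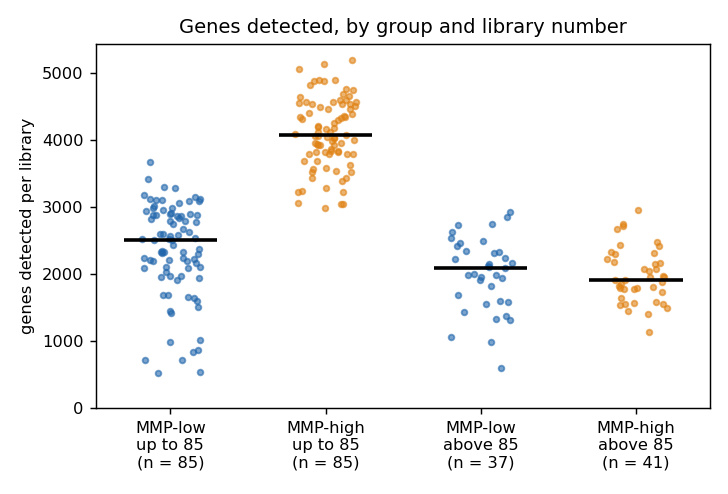
Genes detected per library (y axis, number of genes) for MMP-low and MMP-high, split at library number 85; points are libraries and black lines medians. Up to 85 the medians were 2500 in MMP-low and 4080 in MMP-high, and above 85 they were 2083 and 1905.

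Of a list of 42 immediate early and handling stress genes, which holds the 4 genes themselves, the authors' deposited MMP table puts 16 on the MMP-low side and 0 on the MMP-high side, with a median log fold change of 0.49. The shares listed were 38.1% and 0%, against 5.86% and 5.67% of all genes tested. At an adjusted p under 0.05 there were 9 and 0 genes. Without the 4 genes there were 12 and 0 listed. The other 26 were not listed, and whether they were among the genes tested is not stated. Myc, also an immediate early gene but not a member of this list, went the other way in the authors' deposited table, with 0.44 in favour of MMP-high (adjusted p = 0.000206). Lists were chosen with earlier results of these data known, and another choice of members gives other counts.

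Among transcription factors, Nr4a2, the paralog of Nr4a1, had a log fold change of 0.63 (adjusted p = 7.2e-07) with detection of 97.1% against 84% by the authors' deposited table, whereas Nr4a3 was not listed. Egr2, Egr3 and Egr4, the paralogs of Egr1, and Nab1 and Nab2, corepressors that bind EGR factors, were not listed. Of 15 genes of the AP-1 family and its small partners, 6 were listed toward MMP-low and 1 toward MMP-high. These are 40% and 6.67%, against 5.86% and 5.67% of all genes tested. Fos, the partner of Junb in AP-1, had 0.50 (adjusted p = 0.000116) and Mafk, a small MAF protein, 0.31 (adjusted p = 4.27e-08) in the authors' deposited table. Jun had 0.48 and Atf3, a stress-induced factor, 0.39, each with an adjusted p of 1. Jdp2, a repressor that dimerizes with JUN proteins, had 0.28 in favour of MMP-high (adjusted p = 6.18e-13) with detection of 75.6% there against 13.3% in MMP-low by the authors' deposited table.

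Of 22 genes of SRF, ETS and CREB factors and the kinases that activate them, 1 was listed in each direction in the authors' deposited MMP table, or 4.55% each against 5.86% and 5.67% of all genes tested. Mapk3, which encodes the kinase ERK1, had 0.48 in favour of MMP-low (adjusted p = 2.49e-07), and Atf1, a relative of CREB, 0.43 in favour of MMP-high (adjusted p = 3.3e-08). Among 12 feedback inhibitors of MAPK signalling, the phosphatases Dusp1 and Dusp5 were listed toward MMP-low with 0.40 and 0.28 in the authors' deposited table, with an adjusted p of 1 and 0.764. Of 12 NF-kB factors and feedback genes, the inhibitor Nfkbia (0.52, adjusted p = 0.356) was listed toward MMP-low and Rela (0.30, adjusted p = 1), a subunit of NF-kB, on the opposite side of the authors' deposited table. Toward MMP-low and MMP-high, the shares listed were 16.7% and 0% for the feedback inhibitors and 8.33% each for NF-kB. The NF-kB shares lie near those of all genes tested.

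Zfp36l1 and Zfp36l2, the paralogs of Zfp36, were not listed in the authors' deposited MMP table. Of 12 messages known as targets of ZFP36, Ccl3, a chemokine, had 0.38 (adjusted p = 7.63e-08) and Ptgs2, the inducible cyclooxygenase, 0.26 (adjusted p = 1.85e-18), each toward MMP-low by the authors' deposited table, and the other 10 were not listed. The listed share was 16.7%, against 5.86% of all genes tested. Among further immediate early genes Gadd45b had 0.35 (adjusted p = 5.37e-06), Btg2, an antiproliferative factor, 0.36 (adjusted p = 0.0189) and Rhob, a small GTPase, 0.30 (adjusted p = 4.66e-05) toward MMP-low by the authors' deposited table.

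**Figure D2:**
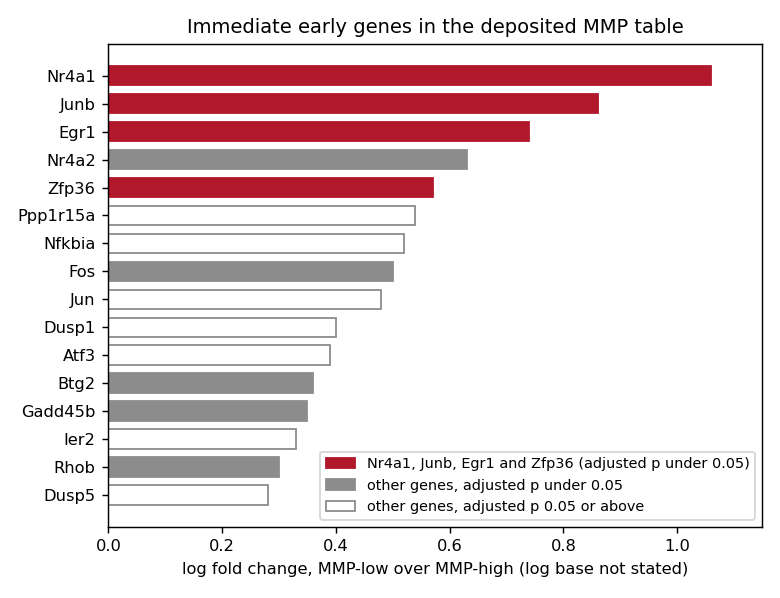
Log fold change of MMP-low over MMP-high (x axis, base not stated) for the 16 listed immediate early genes, from the authors' deposited table; filled bars have an adjusted p under 0.05 and red marks Nr4a1, Junb, Egr1 and Zfp36. Nr4a1 reaches 1.06, and 9 of the 16 bars are filled.

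Genes of quiescence and of other stress responses were set beside them. Of 40 quiescence and stem cell genes outside the immediate early list, the authors' deposited MMP table puts 18 on the MMP-low side and 1 on the other, with 12 and 0 at an adjusted p under 0.05. Ifitm1, an interferon-induced membrane protein, had 0.98, Ly6a, which encodes the sorting marker Sca1, 0.83, Mllt3, a factor of HSC maintenance, 0.82 and Procr, a surface receptor of HSCs, 0.71 in the authors' deposited table, all with an adjusted p under 0.05. The cell cycle inhibitors Cdkn1a, Cdkn1b and Cdkn1c were not listed. Of 15 heat shock and chaperone genes, the authors' deposited table puts 0 on the MMP-low side and 4 on the MMP-high side, namely Hsp90aa1 with 0.36 (adjusted p = 0.00132), Hsp90ab1 with 0.32 (adjusted p = 0.00137), Hspa8 with 0.33 (adjusted p = 0.0688) and Dnaja1 with 0.34 (adjusted p = 1). Their stress-inducible relatives Hspa1a and Hspa1b were not listed. Of 12 genes of unfolded protein and amino acid stress, Trib3 had 0.32 in favour of MMP-low (adjusted p = 0.000176) and Herpud1 0.33 in favour of MMP-high (adjusted p = 1) in the authors' deposited table. Listed members of 25 G1/S and DNA replication genes numbered 0 toward MMP-low and 14 toward MMP-high, and those of 23 G2/M genes 1 and 7. Toward MMP-low and MMP-high, the shares listed were 45% and 2.5% for quiescence and stem cell genes and 0% and 26.7% for heat shock genes. They were 0% and 56% for G1/S genes and 4.35% and 30.4% for G2/M genes. Genes of unfolded protein and amino acid stress had 8.33% in each direction, near the 5.86% and 5.67% of all genes tested. Quiescence and handling cannot be told apart as sources of the 4 folds here, since the tables give no value per cell, no time from tissue to lysis and no unsorted control.

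**Figure D3:**
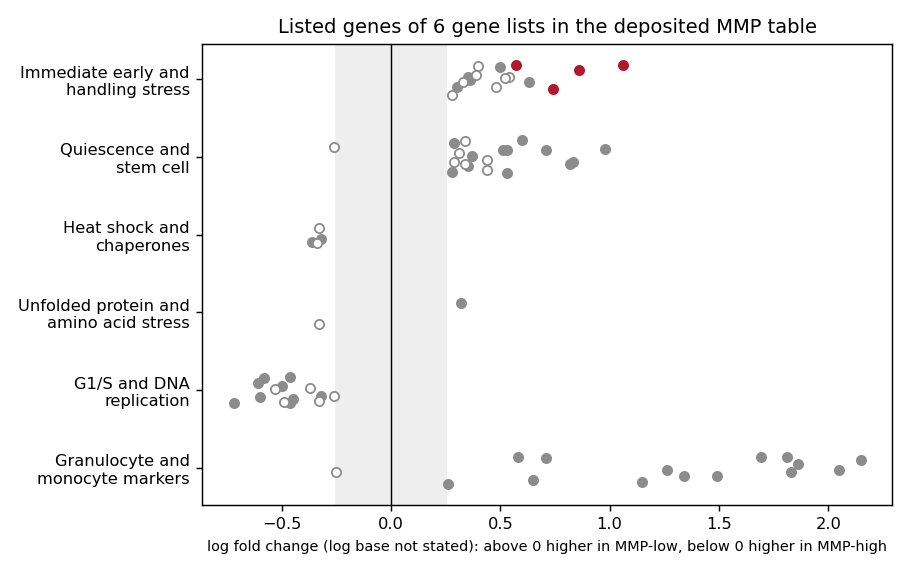
Log fold changes (x axis, base not stated; above 0 higher in MMP-low) of the listed genes of 6 gene lists in the authors' deposited table; filled points have an adjusted p under 0.05, red points are Nr4a1, Junb, Egr1 and Zfp36, and the grey band is the range under 0.25 in which no gene is listed. All 16 listed immediate early genes lie above 0 and all 4 listed heat shock and chaperone genes below 0.

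Markers of other cell types moved with the same groups. Of 23 granulocyte, monocyte and macrophage markers, the authors' deposited MMP table puts 14 on the MMP-low side and 1 on the other, with a median log fold change of 1.42 on the MMP-low side against 0.49 for the immediate early list. Of 22 B, T and lymphoid progenitor markers, 7 were listed toward MMP-low and 1 toward MMP-high. The shares were 60.9% and 4.35% for the 23 markers and 31.8% and 4.55% for the 22, against 5.86% and 5.67% of all genes tested. The neutrophil genes Ltf, Ngp and Camp reached 100% detection in MMP-low against 30.3%, 31.9% and 46.2% in MMP-high by the authors' deposited table, and Ighm 70.5% against 0%. Myeloid cells also express Nr4a1, Egr1, Junb and Zfp36. Summed marker levels per cell cannot be had from these tables, and the part of such RNA in the 4 folds was not tested.

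Across the authors' clusters the 4 genes came together in A. Cluster genes were listed by fold against other cells, and 65.1% of the 854 genes listed for cluster A (58.6% of those on the MMP-low side) were also listed as higher in MMP-low, while 0 were listed as higher in MMP-high. The clusters hold the same cells as the MMP groups and were made from their expression, so they are no independent look at these genes. In the authors' deposited cluster table, Nr4a1 had a log fold change of 0.69 in cluster A (adjusted p = 1.87e-07), rank 27 of 854. Junb had 0.62 in the authors' deposited table (adjusted p = 4.2e-07), rank 39. By the authors' deposited table Egr1 had 0.50 (adjusted p = 0.0896) and Zfp36 0.34 (adjusted p = 1), which placed them at 12.1% and 46.7% of the list. Cluster A held 5.27% of the genes tested, or 4.05% with an adjusted p under 0.05. The order of the 4 genes by fold was the same as between the MMP groups.

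Egr1 alone of the 4 was listed in another cluster as well. In cluster C it had a log fold change of 0.44 (adjusted p = 0.0217) in the authors' deposited cluster table, rank 228 of 830. Its fold was thus smaller in C than in A, with the smaller adjusted p, and the difference between the clusters was not tested. None of the 4 genes was listed for clusters B, D or E. Detection was 100% in cluster A and in the other cells for Egr1, Junb and Zfp36, and 100% against 97.8% for Nr4a1, in the authors' deposited table.

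Genes of the immediate early list, the 4 genes included, were divided between the clusters by name. Of the 42 genes, the authors' deposited cluster table listed 13 for A, 4 for B, 5 for C, 0 for D and 1 for E. Clusters A to E held 5.27%, 4.16%, 5.12%, 3.23% and 2.80% of the genes tested, and nothing is read from the counts for D and E. With an adjusted p under 0.05 there were 6 for A, 2 for B, 4 for C, 0 for D and 0 for E. The shares of the genes tested were then 4.05%, 1.64%, 3.07%, 1.86% and 1.12% for A to E. Nr4a1 and Junb were among these 6 for A, and Egr1 among these 4 for C. Without the 4 genes and at any adjusted p, 9 were listed for A, 4 for B, 4 for C, 0 for D and 1 for E. Cluster A held Atf3 (0.64, adjusted p = 2.85e-10), detected in 100% of its cells and in 63.1% of the others, and Nr4a2 (0.43, adjusted p = 3.57e-07) in the authors' deposited table. Cluster C held Klf6 (0.54, adjusted p = 0.00266) and Klf4 (0.49, adjusted p = 1.66e-07), which are zinc finger factors, in the authors' deposited table. It also held Fosl2 (0.49, adjusted p = 1.76e-09), an AP-1 subunit, in the authors' deposited table. Between the MMP groups 0 of these 3 were listed. Of the 830 cluster C genes, 7.23% were listed toward MMP-low and 14.6% toward MMP-high, so nothing is read from this 0. Jun was listed for A and C with 0.30 and 0.34, each with an adjusted p of 1. Cluster B held Gadd45b with 0.61 (adjusted p = 1) and Atf3 with 0.34 (adjusted p = 3.3e-09) in the authors' deposited table.

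**Figure D4:**
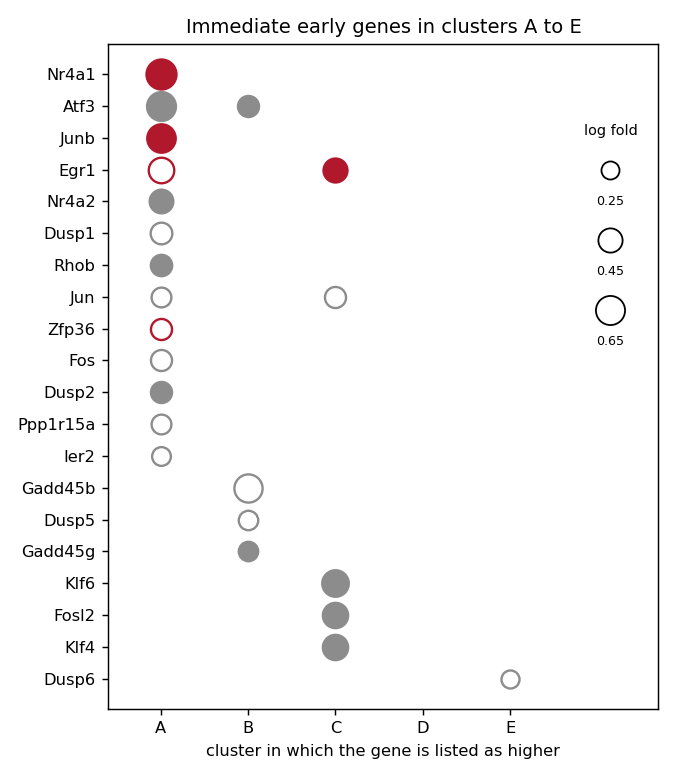
Immediate early genes (y axis) listed as higher in clusters A to E (x axis) in the authors' deposited table; circle area is the log fold change, filled circles have an adjusted p under 0.05 and red marks Nr4a1, Junb, Egr1 and Zfp36. Cluster A holds 13 of these genes, cluster C a group led by Klf6, and cluster D none.

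Upstream genes were split as well. Mapk3 (0.45, adjusted p = 0.000166) and Rps6ka1 (0.37, adjusted p = 0.00708), which encodes the ERK-activated kinase RSK1, were listed for cluster A in the authors' deposited table. Atf2, a CREB relative and AP-1 partner, was listed for cluster C (0.44, adjusted p = 5.14e-05) and Atf1 for cluster D (0.51, adjusted p = 7.79e-09). Nab2 was listed for cluster A (0.31, adjusted p = 0.00913) and Nab1 for cluster D (0.31, adjusted p = 0.0114) in the authors' deposited table. The subunits Rela and Relb of NF-kB were listed for cluster C with 0.76 and 0.33 in the authors' deposited table, both with an adjusted p under 0.05.

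Cluster A also held genes of the other lists. Of the 40 quiescence and stem cell genes 12 were listed for A, 2 for B, 4 for C and 0 for D and E in the authors' deposited cluster table. For comparison, clusters A to E held 5.27%, 4.16%, 5.12%, 3.23% and 2.80% of all genes tested. Beside such shares, nothing is read from counts of 0, 1 or 2 in these lists. Of the 25 G1/S and DNA replication genes, 1 was listed for A, 0 for B, 8 for C, 4 for D and 5 for E. Of the 23 G2/M genes, 3 were listed for A, 1 for B, 3 for C, 4 for D and 1 for E. The G2/M gene Kif11 had 0.40 in A (adjusted p = 7.94e-11) in the authors' deposited table. Of the 23 granulocyte, monocyte and macrophage markers, 7 were listed for A, 11 for B, 2 for C and 0 for D and E. The largest of these folds was 0.80 for Chil3 in A, 2.09 for S100a8 in B and 0.46 for Chil3 in C. Of the 22 B, T and lymphoid progenitor markers, 1 was listed for A, 5 for B, 1 for C, 0 for D and 1 for E. Heat shock and chaperone genes were listed for A as Dnajb1 with 0.32 (adjusted p = 0.0667) and Hspa5 with 0.26 (adjusted p = 1); Dnaja1 was listed for E with 0.36 (adjusted p = 1) in the authors' deposited table.

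By pattern over the 5 clusters, with 0 for a cluster in which a gene was not listed, the genes nearest to each were found by Euclidean distance between log fold changes. Predicted genes were left out. Nr4a1 lay nearest to Ifitm1 (0.69 in A, distance 0.001), then Tmem128, Serpina3g, Pttg1ip and Aplp2. Junb lay nearest to Tcp11l2, Lyz2, Nrd1, Mfge8 and Itgb7, at distances of 0.002 to 0.018. Zfp36 lay nearest to Fos (distance 0.001), with Slc18a2, Smurf1 and Rgcc also among its nearest. Egr1, listed in A and C, lay nearest to Slx1b (distance 0.061), Srpk1, Cask, AY074887 and Uba7. These distances rest on 5 points that are mostly 0 and say no more than that the folds are alike. By detection in the MMP groups 97 genes of the MMP-low side, Egr1, Junb and Zfp36 among them, had 100% and 100%, and 4 others had the same values as Nr4a1, so detection sets no gene apart.

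Other deposited lists held the genes unevenly. Nr4a1, Egr1 and Junb were among the 5624 genes that the authors' deposited table calls highly variable, and Zfp36 was not, whereas 69.3% of the genes on the MMP-low side were. Zfp36 was among 99 genes (10.4% of the MMP-low side) that the authors' deposited table gives as higher in MMP-low and in dHSC, an abbreviation that the file does not spell out, and the other 3 genes were not. Zfp36 was the only gene there of the 16 immediate early genes on the MMP-low side. Of the 18 quiescence and stem cell genes on that side, 7 were there. The difference was not tested.

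The authors' deposited table of factor target sets gave 21 sets for each side. On the MMP-low side 14 sets held at least 1 of the 4 genes, with Egr1 and Junb in 9 each, Zfp36 in 4 and Nr4a1 in 2. The sets were given for the genes of that side, to which the 4 genes belong. How many of these sets, or of the Gene Ontology terms below, hold other genes of the side was not computed. Nothing is read from the counts. A CREB1 set held Nr4a1, Egr1 and Junb among 98 genes of 1444 (adjusted p = 0.00216) in the authors' deposited table, and the same set was given for MMP-high with 134 genes (adjusted p = 1.15e-14) and none of the 4. An EGR1 set was given for MMP-low, with 27 genes of 315 that included Egr1 and Zfp36 (adjusted p = 0.0103), and not for MMP-high. No SRF set was given for either side. In the authors' deposited table of Gene Ontology terms for MMP-low, Zfp36 was in 13 of 61 terms, among them mRNA catabolic process with 17 genes of 132 (adjusted p = 0.0388) and 12 terms of kinase binding, and the other 3 genes were in 0. In the terms of clusters A and C, Egr1 was in 1 term each, with adjusted p of 0.183 and 0.174 in the authors' deposited tables.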

How the data were processed

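Single HSCs were made into full-length cDNA and sequenced per the labels' protocols (SMART-Seq v4 on a Fluidigm C1 chip, Nextera XT). Per the submitters' processing notes, STAR 2.5.2b and bcl2fastq 2.17.1.14 were used, with mm10 as the build. For normalization, annotation and detection threshold: not given in the sources used here. The deposited MMP table names MAST per the file headers. Its average log fold changes, deposited by the authors without a base, were printed as given. The deposited fraction of cells with detection was turned into percent. Each deposited adjusted p-value equals the p-value times 16203, with 1 as the maximum; 16203 was read as the number of genes tested. The smallest listed log fold change was 0.25 and the largest listed p-value 0.00999. Counts of reads and detected genes, and intron fractions, per library were deposited by the authors per the file headers.

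Groups came from the titles. No animal is named, so no new test was made, and members were described by value, rank and count. The members and the 14 gene lists were chosen with earlier results of these data known. Named genes were the 4 members, up to 12 listed genes per list, and the 5 genes nearest to each member, of which 1 is not reported here. Promoters came from RefSeq (3 of the 4 genes are printed), exons from GENCODE. Ranks, distances and motif searches were tested on simulated data. Python 3.11.15 and pandas 2.3.3 were used. Alternatives were stricter thresholds, lists without the 4 genes, and library numbers up to and above 85. The other deposited tables were not used here.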

Additional observations from a re-analysis of the deposited data

How the results depend on the processing

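Of 43 alternative values, 27 stayed within 1.5 times the reported count or rank, or within 1 SD over libraries for medians, and 16 moved. The 16 immediate early genes on the MMP-low side became 9 at an adjusted p under 0.05, 8 under 0.01 and 7 with the log fold minimum raised to 0.5, and the MMP-high side stayed at 0 throughout. Per cluster, an adjusted p under 0.05 left 6 of 13 in A, 2 of 4 in B and 0 of 1 in E, and the log fold minimum of 0.5 left 4 in A, 1 in B, 1 in C and 0 in E. Fewer genes pass by construction. The rank of Nr4a1 rose from 25 to 14 without granulocyte and lymphoid markers. Ranked by the difference in detection, Nr4a1 stood at 693 and Egr1, Junb and Zfp36 at 807. Above library number 85 the MMP-high median of detected genes was 1905 instead of 3795.5; the cause was not tested. No paired analysis was possible because the library numbers in the titles only name cells and the tables hold no value per cell. Leaving out a library was not possible for the same reason. Shares of cells are limited by an unstated number of cells, so no interval is given for them.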
